A study of Homo sapiens with 16 samples.

Results

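The set described here comprised 10 human genes that encode secreted signals of inflammation: the cytokines IL6, IL1A, IL1B and TNF and the chemokines CXCL8, CXCL1, CXCL2, CXCL3, CCL2 and CCL20. The genes were chosen by name, and all 10 were found among the 18377 genes measured. Each was represented by the transcript cluster with the highest mean signal among the clusters annotated to that gene alone. BT474 is a human HER2-positive breast cancer cell line. Its cells carried a lentiviral vector that doxycycline switches on, and they formed tumours after injection into a mammary fat pad of mice without a full immune system. The vector encoded SHP2 miR1 (7 tumours), SHP2 miR2 (3 tumours) or CTRL miR (6 tumours), where the first and second are microRNA hairpins against the phosphatase SHP2 and the last is the control hairpin. Mice of all 3 groups, controls included, drank doxycycline at 2 g per L from the time tumours had formed until day 30, and 100 ng of total RNA per tumour was hybridised to a human gene array. No label ties a tumour to an animal or to a separate injection, so p-values measure the spread between these tumours.

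Interleukin 6 acts through its receptor IL6R and the shared subunit gp130 (IL6ST), which activate the transcription factor STAT3. SHP2 is itself recruited to gp130, at a site that is also bound by the feedback inhibitor SOCS3. Interleukin 1 and tumour necrosis factor act through receptors that release NF-kB, and NF-kB together with C/EBP and AP-1 factors drives the genes of IL-6 and of many chemokines. CXCL8 and CXCL1 to CXCL3 attract neutrophils, CCL2 attracts monocytes and CCL20 attracts cells that carry CCR6.

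The sequences before the transcription start carry these control sites and are shown because 5 of the genes share a match to 1 NF-kB motif. RefSeq promoter windows of build GRCh38.p14, which span 250 bases before to 50 bases after each start, were held for 9 of the 10 genes, all but CCL2. The 250 bases before the start of IL6 are shown first, at chr7:22726950-22727199 on the plus strand. Capitals mark the matches to the CRE motif GACGTCA, to the C/EBP motif TTGCNNAA and to the NF-kB motif (GGG, any 2 bases, then TTTCC), in that order.
IL6: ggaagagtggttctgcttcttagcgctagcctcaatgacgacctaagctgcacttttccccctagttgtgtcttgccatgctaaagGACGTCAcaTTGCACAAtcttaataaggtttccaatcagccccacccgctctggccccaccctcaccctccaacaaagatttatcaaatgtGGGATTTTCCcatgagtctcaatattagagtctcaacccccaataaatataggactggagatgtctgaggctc
The other 4 matches to the NF-kB motif, in capitals within 60 bases each, lie in CXCL1 (chr4:73869289-73869348, plus strand), CXCL2 (chr4:74099239-74099298, minus strand), CXCL3 (chr4:74038734-74038793, minus strand) and CCL20 (chr2:227813738-227813797, plus strand). In CCL20 the match is on the opposite strand.
CXCL1: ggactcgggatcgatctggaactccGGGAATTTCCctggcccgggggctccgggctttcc
CXCL2: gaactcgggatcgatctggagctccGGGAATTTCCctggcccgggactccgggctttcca
CXCL3: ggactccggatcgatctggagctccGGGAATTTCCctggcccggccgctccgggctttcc
CCL20: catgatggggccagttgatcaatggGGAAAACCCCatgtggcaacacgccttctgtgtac
The first base of the match lay 73 bases before the start in IL6, 79 in CXCL1, CXCL3 and CCL20, and 78 in CXCL2. On either strand, 1.91% of 35116 promoter windows held this NF-kB motif. The C/EBP motif was matched in IL6, CXCL2 and IL1B (10.5% of windows), the AP-1 motif TGANTCA in CXCL8 and IL1A (7.71%) and the CRE motif in IL6 and CXCL2 (3.45%). These are matches of letters in a window and no measurement of binding. Only 1 fixed motif per factor was searched, so a promoter without a match may still hold a site with other letters. The stretches of CXCL1 and CXCL3 were identical at 56 of 60 bases, those of CXCL1 and CXCL2 at 49, and those of CXCL2 and CXCL3 at 48. CXCL1, CXCL2 and CXCL3 are close paralogs, so part of the signal of each may come from transcripts of the others.

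All values are deposited log2 signals, and a change is a difference of mean log2 signals. A gene was called when its limma p-value, adjusted after Benjamini-Hochberg over the 18377 genes, was below 0.05. PTPN11, which encodes SHP2, averaged 6.93 ± 0.19 with miR1, 6.46 ± 0.10 with miR2 and 8.40 ± 0.16 with CTRL miR (SD, n = 7, 3 and 6). With miR1 it fell by 1.47 and with miR2 it fell by 1.94 (limma adjusted p = 5.11e-08 and 6.97e-09). The controls were mixed. The adaptor IRS4 had 2.97 to 3.91 in the 10 SHP2 miR tumours, 3.16 and 3.77 in CTRL tumours 2 and 5, and 7.14 to 8.29 in CTRL tumours 1, 3, 4 and 6. The arrays also fell into 2 sets by the mean of 5 noncoding RNAs, which was 8.19 to 8.39 in set A (CTRL tumours 1 to 3 and miR1 tumours 1 to 4) and 6.81 to 7.21 in set B, which held all 3 miR2 tumours. In these bulk samples, more cells of a type and more RNA per cell cannot be told apart. Mouse host cells are read as far as their transcripts bind the human probes.

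Most of the 10 genes gave dim signals. CCL2, CCL20, IL1A and IL1B lay below the lower quartile of the array on all 16 arrays, IL6 on 14, CXCL8 on 9 and TNF on 2. CXCL1, CXCL2 and CXCL3 lay above it on every array. Signals of different clusters are not compared as levels, and changes of dim genes can be understated on this scale. They can also depend on the low end of each array. The miR2 changes of IL6, CCL20, IL1A and IL1B were smaller after quantile normalization, as given below.

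IL6 was the gene of the set that stood out. In the 7 miR1 tumours it had a log2 signal of 3.13 at the lowest, 3.32 at the median and 3.41 at the highest. It had 4.86, 4.67 and 4.16 in miR2 tumours 1, 2 and 3, and 3.17, 3.48 and 3.72 (lowest, median, highest) in the 6 CTRL tumours. Every miR2 tumour was above every other tumour, while the miR1 and CTRL ranges overlapped. Of all genes, 6.55% had every miR2 tumour above every CTRL tumour, and IL6 and IL1A were the genes of the set among them. IL6 alone of the set had every miR2 tumour above every miR1 tumour, as had 6.95% of all genes. IL6 rose with miR2 by 1.09 ± 0.135 (SE; 95% interval 0.81 to 1.37; limma adjusted p = 2.09e-05), a signal ratio of 2.13. Only 59 of the 18377 genes had a larger change in this direction. With miR1 it did not pass the test (-0.19, interval -0.42 to 0.03, limma adjusted p = 0.351). IL6 was lower with miR1 than with miR2 by a tested difference of -1.28 ± 0.132 (SE, limma adjusted p = 2.22e-06).

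The IL6 call with miR2 held in each of 11 other settings (0.92 to 1.19) and without any 1 of the 16 tumours (0.94 to 1.29). Against CTRL tumours 2 and 5 alone, which had 3.43 and 3.72, the change was 0.99 (limma adjusted p = 0.00224). Within array set B it was 1.0 (limma adjusted p = 0.00414). With miR2 tumour 2 as the sole miR2 tumour it was 1.19 (limma adjusted p = 0.000502), where the lone tumour is assumed to vary like the other groups. Even in the miR2 tumours IL6 stayed a dim signal: 29.0%, 28.3% and 16.1% of all genes lay at or below it on those 3 arrays.

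**Figure D1:**
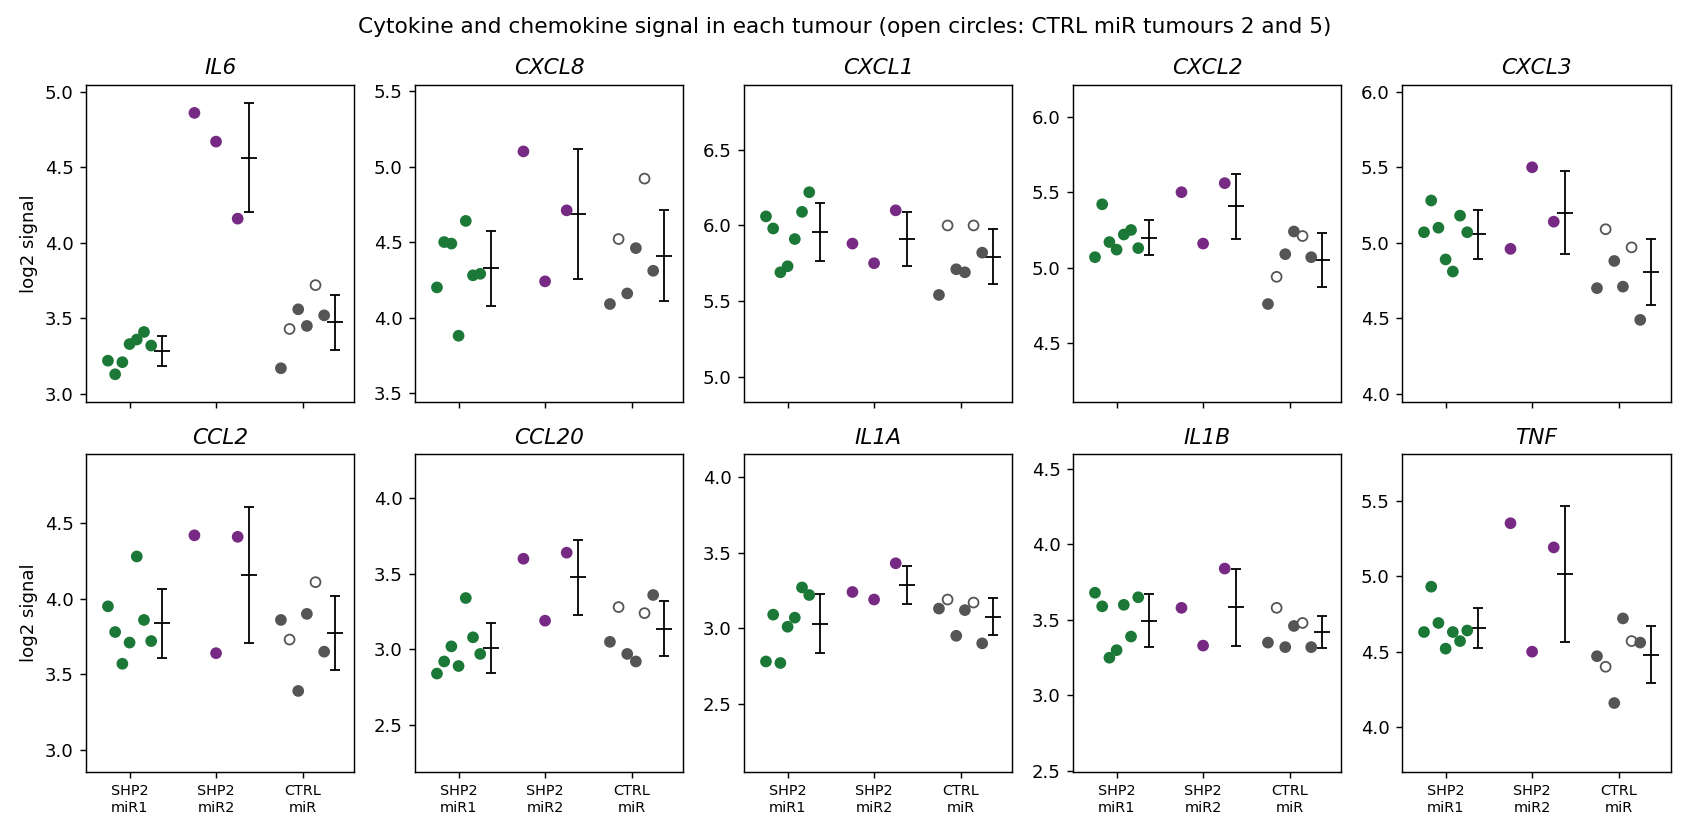
Log2 signal of each of the 10 genes (vertical axis) in every tumour, by group on the horizontal axis: SHP2 miR1 (n = 7), SHP2 miR2 (n = 3) and CTRL miR (n = 6). Points are tumours, open circles are CTRL tumours 2 and 5, and bars are the mean with the SD. For IL6 the 3 miR2 points lie at 4.16 to 4.86, above all 13 others.

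CXCL8, or interleukin 8, is the main human neutrophil chemokine. It had 5.10, 4.24 and 4.71 in the miR2 tumours, 3.88, 4.29 and 4.64 (lowest, median, highest) in the miR1 tumours and 4.09, 4.39 and 4.92 in the CTRL tumours. The 3 groups overlapped, and CTRL tumour 5 exceeded 2 of the 3 miR2 tumours. The change was 0.27 (SE 0.191, limma adjusted p = 0.268) with miR2 and -0.08 (SE 0.15, limma adjusted p = 0.845) with miR1.

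CXCL1, which shares the receptor CXCR2 with CXCL8, gave signals near the median of its arrays. It had 5.88, 5.75 and 6.10 with miR2, 5.69 to 6.22 around a median of 5.98 with miR1, and 5.54 to 6.0 around 5.76 with CTRL miR. No group stood apart. Neither change passed the test: 0.16 with miR1 (95% interval -0.06 to 0.37) and 0.12 with miR2 (-0.16 to 0.39).

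CXCL2 had 5.50, 5.16 and 5.56 in the miR2 tumours, 5.07, 5.17 and 5.42 (lowest, median, highest) with miR1 and 4.76, 5.08 and 5.24 with CTRL miR. Tumours 1 and 3 of miR2 lay above all others, and tumour 2 lay inside both other ranges. CXCL2 rose with miR2 by 0.35 (SE 0.119, limma adjusted p = 0.0319) and changed by 0.15 (SE 0.094, limma adjusted p = 0.448) with miR1. The miR2 call was lost without miR2 tumour 1 (0.31, adjusted p = 0.132), without miR2 tumour 3 (0.28, adjusted p = 0.173) or without CTRL tumour 1 (0.30, adjusted p = 0.0686), all by limma.

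CXCL3 gave another order. The highest miR2 tumour was tumour 2, with 5.50, against 4.96 and 5.14 in tumours 1 and 3. The miR1 tumours had 4.81, 5.07 and 5.28 (lowest, median, highest) and the CTRL tumours 4.49, 4.79 and 5.09. CXCL3 rose with miR2 by 0.39 (SE 0.141, limma adjusted p = 0.0418), a call lost in 6 of 16 leave-one-out fits, to 0.24 (adjusted p = 0.204) without miR2 tumour 2, and with quantile normalization (0.29, adjusted p = 0.167). It was the sole gene of the set with an unadjusted limma p below 0.05 for miR1 (0.25, SE 0.111, limma adjusted p = 0.228). CTRL tumours 2 and 5 had 5.09 and 4.97, above the 4.49 to 4.88 of the other 4 controls. Against those 2 alone the miR2 change was 0.17 (limma adjusted p = 0.62).

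CCL2, the monocyte chemokine, had 4.42, 3.64 and 4.41 in the miR2 tumours. The miR1 tumours had 3.57, 3.78 and 4.28 (lowest, median, highest) and the CTRL tumours 3.39, 3.79 and 4.11. Again miR2 tumours 1 and 3 lay above all others and tumour 2 did not. The change did not pass the test with miR2 (0.38, SE 0.178, limma adjusted p = 0.103) or with miR1 (0.07, SE 0.14, limma adjusted p = 0.875).

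CCL20 had 2.84, 2.97 and 3.34 (lowest, median, highest) in the miR1 tumours, 3.60, 3.19 and 3.64 in miR2 tumours 1, 2 and 3, and 2.92, 3.15 and 3.36 (lowest, median, highest) in the CTRL tumours. All 3 groups overlapped, with miR2 tumours 1 and 3 above all others. Against CTRL miR the change was 0.34 (SE 0.132, limma adjusted p = 0.0573) with miR2 and -0.13 (SE 0.104, limma adjusted p = 0.589) with miR1. Directly between the hairpins CCL20 was lower with miR1, by -0.47 ± 0.129 (SE, limma adjusted p = 0.0158). That call was lost without miR2 tumour 1 (-0.41, adjusted p = 0.0979) or tumour 3 (-0.39, adjusted p = 0.124) within array set B (-0.35, adjusted p = 0.231) and with the array set as a block (-0.38, adjusted p = 0.0628), and it just missed the threshold after quantile normalization (-0.34, adjusted p = 0.0503), all by limma.

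The 2 interleukin 1 genes encode agonists of the receptor IL1R1. IL1A had 3.24, 3.19 and 3.43 with miR2, 2.77, 3.07 and 3.27 (lowest, median, highest) with miR1 and 2.90, 3.12 and 3.19 with CTRL miR. The miR2 tumours lay above the controls only by a margin below the second decimal, and the change of 0.21 (SE 0.12) did not pass (limma adjusted p = 0.179). IL1B had 3.58, 3.33 and 3.84 with miR2, 3.25, 3.59 and 3.68 with miR1 and 3.32, 3.41 and 3.58 with CTRL miR. All groups overlapped, and the IL1B change with miR2 was 0.17 (SE 0.124, limma adjusted p = 0.292).

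TNF, the cytokine that signals through TNFRSF1A and TNFRSF1B, had 5.35, 4.50 and 5.19 in the miR2 tumours. It had 4.52, 4.63 and 4.93 (lowest, median, highest) in the miR1 tumours and 4.16, 4.52 and 4.72 in the CTRL tumours. Tumours 1 and 3 of miR2 were again the highest of all, and tumour 2 was below every miR1 tumour. TNF rose with miR2 by 0.53 ± 0.153 (SE; 95% interval 0.21 to 0.85; limma adjusted p = 0.0148), a signal ratio of 1.45. The call was lost without miR2 tumour 1 (0.36, adjusted p = 0.131) or tumour 3 (0.45, adjusted p = 0.1), and with tumour 2 as the sole miR2 tumour the change was 0.02 (adjusted p = 0.971), all by limma. The TNF change with miR1 was 0.18 (SE 0.121, limma adjusted p = 0.483). TNF is listed by 3 clusters with the same values, so they count as 1 measurement.

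**Figure D2:**
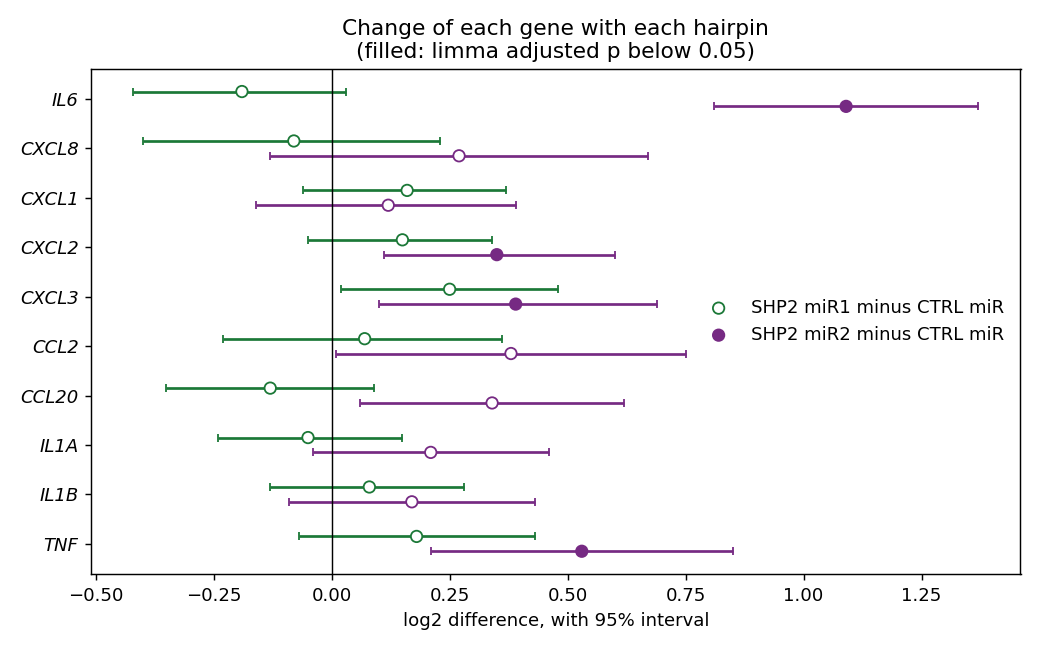
Change of each gene as a log2 difference from CTRL miR (horizontal axis) with its 95% interval, for SHP2 miR1 (upper of each pair) and SHP2 miR2 (lower). Filled points passed the limma test. IL6 with miR2 lies at 1.09, apart from all other changes, and all 10 points of miR1 are open.

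Over the set, 0 of 10 genes were called with miR1, where 4.76% of all genes were called (1.38% higher and 3.38% lower). The changes ran from -0.19 to 0.25, with a median of 0.07 beside 0.02 over all genes. Of the 10, 6 were above 0, as were 10090 of the 18377 genes. At an unadjusted limma p below 0.05 the count was 1 of 10 for miR1, beside 18.4% of all genes. With miR2, 4 of 10 were called, all higher: IL6, TNF, CXCL3 and CXCL2. Of all genes, 11.8% were called higher and 30.0% in either direction. TNF, CXCL2 and CXCL3 each lost the call against CTRL tumours 2 and 5 alone, within array set B and in a fit of only the groups compared. All 10 changes with miR2 were above 0, as were those of 9600 of the 18377 genes. The median of the 10 was 0.35, beside 0.02 over all genes, and no median of equally dim genes was taken. In at least 1 other setting, 4 of the 10 changed sign. The comparisons of miR1 and miR2 share the 6 CTRL tumours. For the mean of both hairpins, IL6 (0.45), TNF (0.36) and CXCL3 (0.32) were called, 3 of 10 higher. Of all genes, 5.52% were called higher there and 18.6% in either direction. For IL6 this mean joined opposite signs, -0.19 with miR1 and 1.09 with miR2, so it was no rise shared by both hairpins. Against CTRL tumours 2 and 5 alone, and within array set B, none of the 10 was called for the mean of both hairpins. Between miR1 and miR2, IL6 and CCL20 were called lower with miR1, 2 of 10, where 8.22% of all genes were called lower with miR1. The other 8 differences did not pass, with a range of -0.36 to 0.04.

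**Figure D3:**
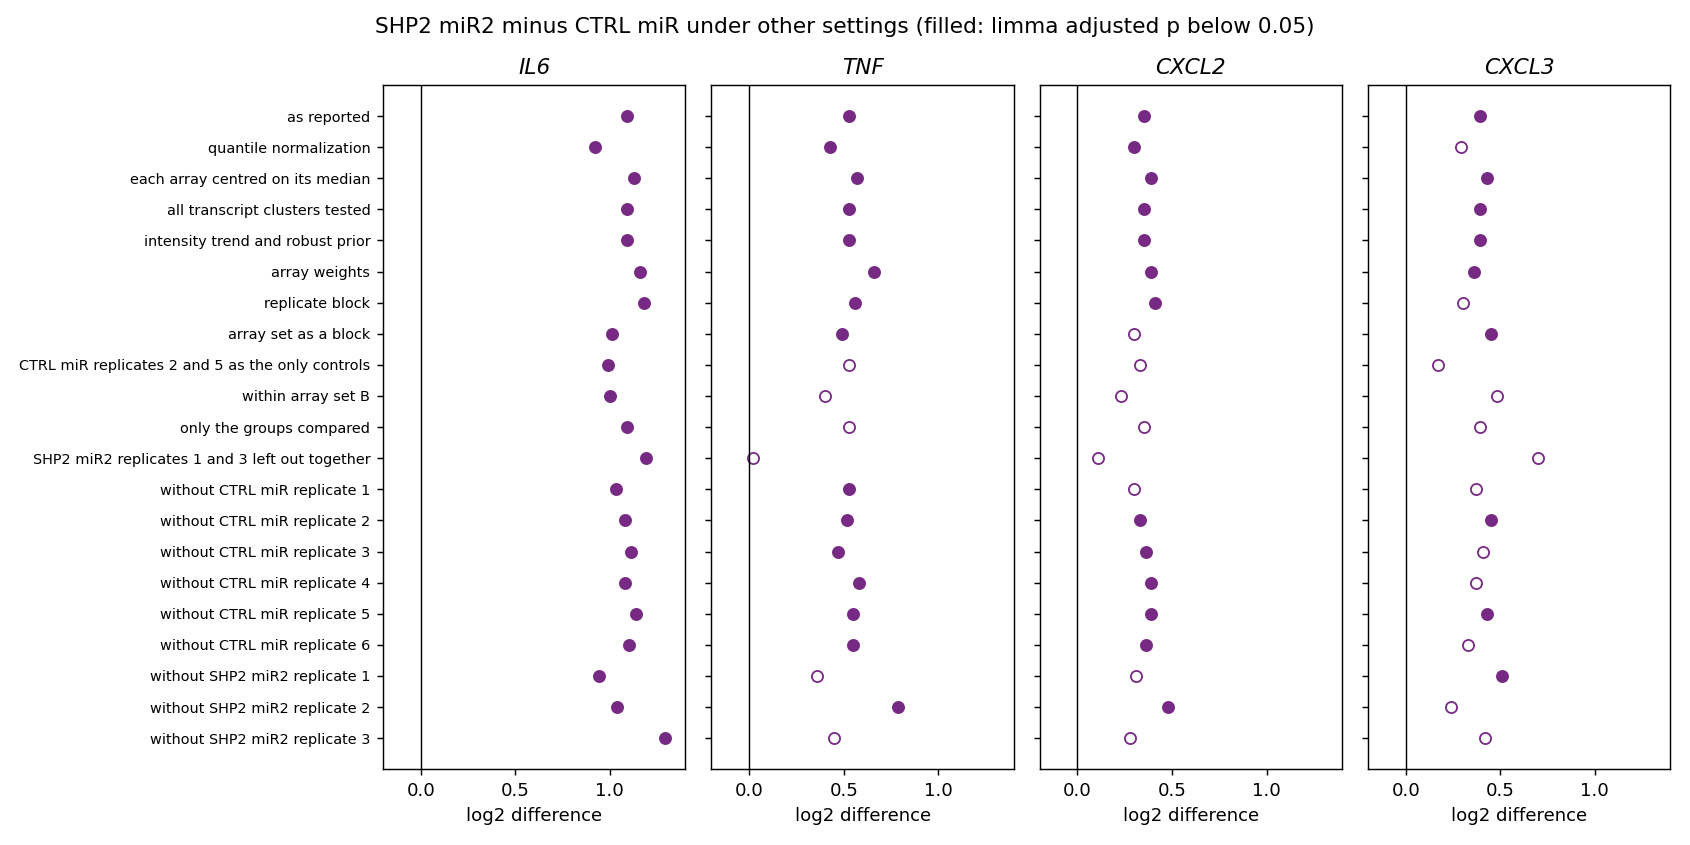
Log2 difference between SHP2 miR2 and CTRL miR (horizontal axis) for the 4 genes called, each row being another processing setting or 1 tumour left out. Filled points passed the limma test. IL6 is filled in every row, while TNF, CXCL2 and CXCL3 are open in several, among them CTRL tumours 2 and 5 as the only controls.

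The 3 miR2 tumours differed among themselves. Tumour 2 was the lowest of the 3 in 8 of the 10 genes, all except IL6 and CXCL3, where 39.4% of all genes had their lowest miR2 value in tumour 2. Tumour 1 was the highest of all 16 tumours in 4 genes (IL6, CXCL8, CCL2 and TNF; 13.4% of all genes) and tumour 3 in 4 others (CXCL2, CCL20, IL1A and IL1B; 15.3%). The mean of the 9 genes other than IL6 was 4.63, 4.28 and 4.67 in miR2 tumours 1, 2 and 3. It was 4.12 to 4.39 in the miR1 tumours and 4.07 to 4.41 in the CTRL tumours. Tumour 2 of miR2 thus lay within both other ranges, and tumours 1 and 3 above them.

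The arrays of miR2 tumours 1 and 3 also differed over all genes. The lower quartile of the array was 4.66 and 4.67 there, against 4.49 in miR2 tumour 2. It was 4.30 to 4.52 in the miR1 tumours and 4.35 to 4.60 in the CTRL tumours. The quartile also followed the array set. No array of set A exceeded 4.41, and none of set B, where all miR2 tumours lay, fell below 4.48. Among the set B controls, CTRL tumour 5 came closest to miR2 tumours 1 and 3, with 4.60. The share of the array set in their higher quartile was not tested. The SD over all clusters was 1.89 in miR2 tumours 1 and 3 and 1.95 (CTRL tumour 5) to 2.07 in the other 14. After quantile normalization, which gives every array the same distribution, the miR2 changes were 0.92 for IL6, 0.43 for TNF, 0.30 for CXCL2, 0.29 for CXCL3 and 0.20 for CCL20. IL6, TNF and CXCL2 passed there (limma adjusted p = 0.00011, 0.0284 and 0.0345). The changes of IL1A and IL1B were then 0.08 and 0.01.

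**Figure D4:**
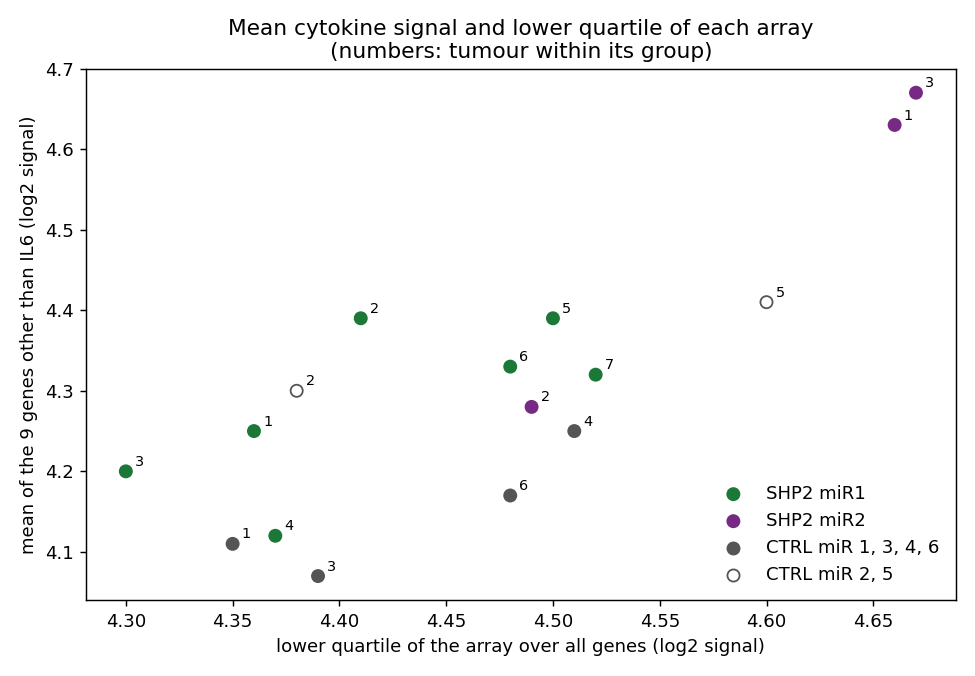
Mean log2 signal of the 9 genes other than IL6 (vertical axis) against the lower quartile of all genes on the same array (horizontal axis), 1 point per tumour with its number. Tumours 1 and 3 of SHP2 miR2 lie highest on both axes (4.66 and 4.63; 4.67 and 4.67), and tumour 2 (4.49 and 4.28) lies among the miR1 and CTRL tumours.

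The controls were not uniform either. CTRL tumours 2 and 5 both lay above CTRL tumours 1, 3, 4 and 6 for CXCL8, CXCL1, CXCL3, IL1A and IL1B, 5 of the 10 genes, where 16.6% of all genes showed this order. For CXCL8 the values were 4.52 and 4.92 against 4.09 to 4.46, and for CXCL1 6.0 in both against 5.54 to 5.82. The other 5 genes, IL6 and TNF among them, overlapped between the control subsets, and none of the 10 lay lower in both of CTRL tumours 2 and 5, where 19.0% of all genes did. Against CTRL tumours 2 and 5 alone, the CXCL8 change with miR2 was -0.04 (limma adjusted p = 0.947) and that of CXCL1 was -0.09 (limma adjusted p = 0.795). Within the 7 miR1 tumours, those of array set B lay neither all above nor all below those of set A for any of the 10 genes, where 13.4% and 15.7% of all genes did.

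The counts for the other genes of these pathways stand beside 11.8% of all genes called higher and 18.2% called lower with miR2, and 4.76% called in either direction with miR1. The other chemokines showed a wider range with miR2. Of 28 measured ligands, 4 rose, 1 fell and 23 did not pass, with a median change of 0.23. CCL5, which attracts T cells and monocytes, rose by 0.64 (SE 0.15), with 4.90 to 5.66 in miR2 tumours and 4.45 to 4.83 in CTRL tumours. CXCL5 (0.34), CCL24 (0.43) and CCL11 also rose. With 1 tumour left out, the CXCL5 call held in 9 of 16 fits and the CCL24 call in 5. CXCL12, the stromal ligand of CXCR4, fell by 0.89 (SE 0.16), with 4.64 to 5.10 in miR2 tumours and 5.59 to 6.21 in CTRL tumours, and it did so in all 12 other settings. With miR1, none of the 28 passed.

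Of 23 other inflammatory cytokines, 9 rose with miR2, 1 fell and 13 did not pass (median 0.25). TNFSF10, the death ligand TRAIL, had 7.15 to 7.62 in miR2 tumours and 5.70 to 6.44 in CTRL tumours and rose by 1.20 (SE 0.14, limma adjusted p = 1.15e-05). IL15, a growth factor of natural killer cells, rose by 0.58 (SE 0.12), and the anti-inflammatory IL10 by 0.60 (SE 0.15). Both were dim, with 3.65 to 4.16 (IL15) and 4.23 to 4.45 (IL10) in miR2 tumours, below the lower quartile of each array. TNFSF15 fell by 0.74 (SE 0.15). With miR1, 0 of the 23 passed, and TNFSF10 changed by 0.34 (limma adjusted p = 0.082).

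Among 12 receptors of the 10 ligands, 4 rose with miR2 and none fell (median 0.18). IL1R1, the signalling receptor of interleukin 1, rose by 0.92 (SE 0.22), with 6.48 to 7.21 in miR2 tumours and 5.44 to 6.47 in CTRL tumours. Its decoy IL1R2 rose by 0.49, TNFRSF1B by 0.54 and ACKR1, a scavenger that binds chemokines without a signal, by 0.51. IL6R averaged 4.73 with miR2 and 5.0 with CTRL miR (limma adjusted p = 0.114), and IL6ST 6.33 with miR2 and 6.37 with CTRL miR (limma adjusted p = 0.86). Neither receptor subunit of IL-6 thus passed against CTRL miR, and IL6R was higher with miR1 than with miR2 by 0.39 (limma adjusted p = 0.0334). With miR1, 0 of the 12 passed.

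The IL-6 and STAT3 list had 4 rises with miR2 among 16 measured genes, none that fell, and a median of 0.16. SOCS3, the STAT3-induced inhibitor, had 7.12, 6.59 and 6.89 in the miR2 tumours. It had 5.51, 6.08 and 6.32 (lowest, median, highest) in the miR1 tumours and 5.66, 5.99 and 6.26 in the CTRL tumours. Every miR2 tumour lay above every other tumour. SOCS3 rose with miR2 by 0.89 ± 0.16 (SE, limma adjusted p = 0.000603) and changed by 0.05 with miR1 (limma adjusted p = 0.894). Against CTRL tumours 2 and 5 alone the change was 0.69 (limma adjusted p = 0.0548), and with tumour 2 as the sole miR2 tumour 0.61 (limma adjusted p = 0.214). FGB (0.49), HP (0.66) and LBP (0.50), acute-phase proteins of the liver, also rose. These signals were dim, averaging 3.66, 3.64 and 4.5 with miR2 and 3.17, 2.98 and 4.0 with CTRL miR. The lower quartile was 4.30 to 4.67 over the 16 arrays. STAT3 itself averaged 8.81 with miR2 and 8.77 with CTRL miR (limma adjusted p = 0.757).

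Signal carriers from the IL-1 and TNF receptors to NF-kB went both ways with miR2: of 18 measured, 4 rose, 2 fell and 12 did not pass (median 0.06). TRAF5, an adaptor of TNF family receptors, rose by 0.63 (SE 0.13) with miR2 and by 0.48 (SE 0.10, limma adjusted p = 0.014) with miR1. It was the 1 gene of the list called with miR1, and that call was lost against CTRL tumours 2 and 5 alone (0.33, limma adjusted p = 0.812). TAB3 (0.41) and the NF-kB subunit RELB (0.52) also rose with miR2, and CHUK, the kinase IKK-alpha, fell by 0.60 (SE 0.14). RELA averaged 7.95 with miR2 and 8.10 with CTRL miR (limma adjusted p = 0.406).

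Of 22 measured genes that NF-kB induces, among them its feedback inhibitors, 4 rose with miR2, 1 fell and 17 did not pass (median 0.19). Complement C3 rose by 0.87 (SE 0.16), the adhesion molecule VCAM1 by 0.56 (SE 0.15) and the caspase-8 inhibitor CFLAR by 0.42 (SE 0.13). VCAM1 was a dim signal, averaging 4.42 with miR2 and 3.86 with CTRL miR. SOD2, the mitochondrial superoxide dismutase, fell by 0.69 (SE 0.15). With miR1, 0 of 22 passed. Of 8 inhibitors and processing enzymes of IL-1 and TNF, TIMP3, which blocks the TNF-shedding protease ADAM17, was the 1 call with either hairpin, falling by 0.60 (SE 0.12) with miR1 and by 0.50 (SE 0.15) with miR2. Against CTRL tumours 2 and 5 alone the TIMP3 change with miR1 was -0.32 (limma adjusted p = 0.825).

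Regulators of cytokine messenger RNA fell or did not pass. Of all genes, 18.2% were called lower with miR2. Of 8 measured here, ELAVL1, which stabilises AU-rich transcripts, fell with miR2 by 0.59 (SE 0.12). KHSRP and ZFP36L2, which promote the decay of such transcripts, fell by 0.65 (SE 0.24) and 0.50 (SE 0.15). The KHSRP call held in 5 of 16 fits with 1 tumour left out and in 4 of 12 other settings. For KHSRP, CTRL tumour 5 (6.92) lay below the miR2 tumours (7.08 to 7.32). The other 5 genes did not pass with miR2, none of the 8 passed with miR1, and the median with miR2 was -0.11. Of 10 AP-1 and C/EBP factors, FOS rose by 0.43 (SE 0.13) and FOSB by 0.54 (SE 0.18) with miR2, and CEBPG fell by 0.55 (SE 0.11). None of these 10 passed with miR1.

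**Figure D5:**
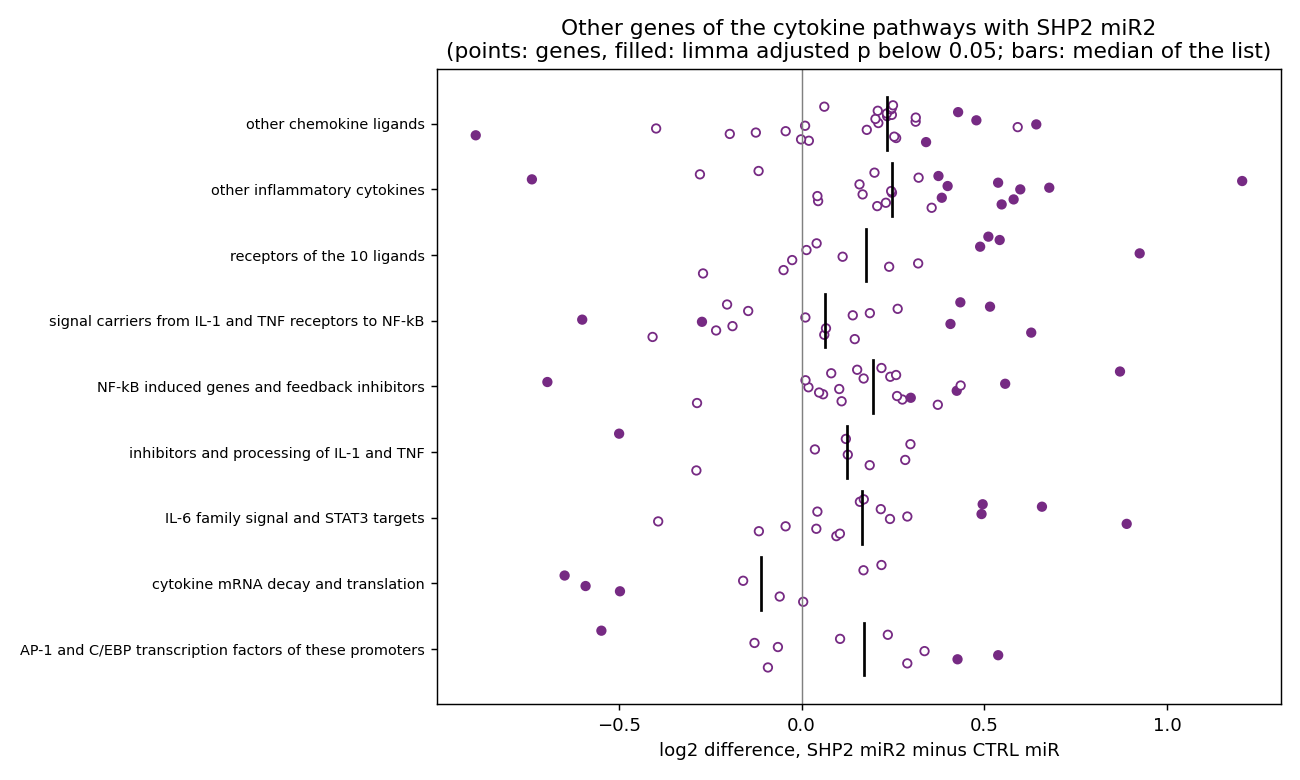
Log2 difference between SHP2 miR2 and CTRL miR (horizontal axis) for every measured gene of 9 lists of the same pathways. Points are genes, filled where the limma test was passed, and black bars are list medians, from -0.11 (messenger RNA decay) to 0.25 (other inflammatory cytokines).

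The calls on these other genes rested on the same samples. Of the 31 named above by rule, 31 passed with miR2 against all 6 controls, 24 after quantile normalization and 15 within array set B. The rule took only genes called in a comparison with CTRL miR in these data, so the first count was all but fixed beforehand. Over all 18377 genes the calls were 5508, 5118 and 2550 in these settings, and 803 against CTRL tumours 2 and 5 alone. Against CTRL tumours 2 and 5 alone 5 passed (CXCL12, TNFSF10, TNFSF15, C3 and CEBPG), and with tumour 2 as the sole miR2 tumour 6 passed (CXCL12, TNFSF10, TNFSF15, IL1R1, TRAF5 and FGB).

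Markers of cell types that could come from the mouse host were counted as well, beside the 11.8% of all genes called higher with miR2. The summed signals of the miR2 and CTRL tumours overlapped for the macrophage, neutrophil, lymphocyte and endothelial lists and did not overlap for the fibroblast list. The summed signal of 14 macrophage and monocyte markers was 298 to 361 in miR1 tumours, 349 to 478 in miR2 tumours and 266 to 354 in CTRL tumours (linear signal units). With miR2, 8 of the 14 rose, LYZ (0.89) and PTPRC (0.66) among them, and 7 of the 14 lay below the mean lower quartile of the arrays. LYZ (0.48) and the fibroblast collagens COL1A1 (0.41) and COL1A2 (0.39) also rose with miR1. With 1 tumour left out these calls held in 14, 4 and 9 of 16 fits, and none held against CTRL tumours 2 and 5 alone (0.21, 0.13 and 0.20). Of 10 fibroblast markers 6 rose with miR2, with summed signals of 862 to 1073 (miR1), 1024 to 1203 (miR2) and 641 to 882 (CTRL miR), and 5 of the 10 lay below that quartile. For neutrophils, 1 of 11 markers rose (206 to 259, 262 to 314 and 190 to 290 in the same order of groups; 8 below the quartile). For lymphocytes it was 2 of 11 (223 to 307, 283 to 372 and 219 to 338; 6 below), and for endothelial cells 3 of 10 (236 to 278, 260 to 331 and 218 to 286; 6 below). None of the 11 luminal and HER2 markers of BT474 had a mean below the quartile (0 of 11), and their sums were 13978 to 16116, 12577 to 14332 and 10063 to 15627. With miR2, 3 of these 11 rose: the oestrogen receptor ESR1 (1.11), its partner GATA3 (1.01) and EPCAM (0.34). The EPCAM call held in 5 of 16 fits with 1 tumour left out. None of the 11 was called lower, and 6 of the 11 changes were above 0 (median 0.1, lowest -0.33). ESR1 also rose with miR1 (0.58), a call that held in 10 of 16 fits with 1 tumour left out. Of 19 named host and BT474 markers, 17 passed with miR2 against all 6 controls and 9 within array set B. These 19 were named by the same rule from genes called in these data, so the 17 describe that choice. Against CTRL tumours 2 and 5 alone 4 passed (LYZ, COL1A2, ESR1 and GATA3), and with tumour 2 as the sole miR2 tumour 3 passed (COL1A2, ESR1 and GATA3). The part of host cells in the IL6 and TNF signals was not tested.

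The 2 most variable genes of the set were IL6 (SD 0.521 over the 16 tumours) and CXCL8 (SD 0.314). After each gene was centred on its mean, the genes nearest to IL6 were LRRTM3, CSMD3 and DEGS1, at a mean absolute difference of 0.142, 0.158 and 0.162 per tumour, beside a mean absolute deviation of 0.379 for IL6 itself. DEGS1, a ceramide-synthesis desaturase, had 8.43 to 8.57 in the miR2 tumours and 7.38 to 8.02 in the other 13. CSMD3 had 4.82 to 5.0 in the miR2 tumours and 3.22 to 3.62 in the others. The genes nearest to CXCL8 were TTTY10, IL34 and MSLN, at 0.109, 0.114 and 0.116, beside a deviation of 0.244 for CXCL8. IL34, a ligand of the macrophage receptor CSF1R, had 5.76 to 6.31 in the miR2 tumours and 5.38 to 6.10 in the other 13.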

How the data were processed

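One human gene array (HuGene-1_0-st-v1) was analysed for each of 16 tumours, whose groups come from the labels. Values are log2 signals as the authors deposited them, 1 for each transcript cluster of an array; the log2 scale is inferred from their range (1.54 to 13.63). R 2.10 and oligo 1.8 are named in the submitters' processing notes. Background correction and normalization between arrays were not given in the sources used here, and no step of this kind was added.

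Of 28869 clusters, 19310 carry 1 gene symbol, 1752 several and 7807 none. Clusters with 1 symbol were used, the one with the highest mean for each of 685 genes with several, which left 18377 genes and no filter on low values. A model with the 3 groups was fitted with limma 3.58.1 in R 4.3.3 (lmFit, contrasts and eBayes, 13 residual degrees of freedom) and tested on simulated data. Intervals are at the 95% level. Depth is not defined for arrays, and their number, 3 for miR2, limits the precision. Figures were drawn with matplotlib 3.10.9.

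The members, lists, tests and alternatives were chosen with earlier results of these data known. Besides the 10 members and PTPN11, at most 4 genes of each list were named. They had the smallest adjusted p for the mean of both hairpins among those called there or with either hairpin. Any set of 5 or fewer was also to be named, but this was not done throughout. Left out above were, among others, NFKB2 and TNFAIP2, called higher with miR2, and MAP3K7, called lower. CCL11, IL6R, IL6ST, STAT3, RELA and IRS4 were named after their values were seen. For the 2 members with the largest SD the 3 nearest genes were named. Tumour numbers were not taken to pair the samples: 5 of 12 same-numbered pairs of different groups had a correlation of deviations over 0.1 (range -0.4201 to 0.3694). All 5 joined a CTRL and a miR1 tumour of the same array set. The remaining pair of these groups, tumours 4, lay across the sets (-0.3021). Pairing and array set were not told apart here. Alternatives were quantile normalization, median centring, leaving out the genes with the lowest means, all clusters, an intensity trend with robust prior, array weights, the replicate block, the array set as a block, each set alone, CTRL tumours 2 and 5 alone, only the groups compared and each tumour left out. Leaving out miR2 tumours 1 and 3 together was added after seeing the data.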

Additional observations from a re-analysis of the deposited data

Results flagged for a closer look

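In the CTRL and miR1 tumours, 22 groups of values were examined for a value far from the rest, each being 1 gene in 1 group. The miR2 tumours were not examined. In 1 group a value was flagged: TNF in miR1 tumour 2, at 4.93, with the next miR1 tumour at 4.69. Chance gives about 1 in 20 such groups, near the 1 of 22 found.

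The difference between the hairpins was itself tested for 61 named genes, and 33 passed (limma, adjusted over all genes), beside 22.5% of all genes. Apart from the 10 of the set and PTPN11, these genes were named because they were called against CTRL miR in these data, so the count is a description. Values are miR1 minus miR2, so a negative value is lower with miR1. Of the set, IL6 differed by -1.28 and CCL20 by -0.47, and the targeted PTPN11 by 0.46. Other chemokines and cytokines that differed were CCL5 (-0.47), CXCL12 (1.11), TNFSF10 (-0.86), IL15 (-0.50), TNFSF15 (0.65) and IL10 (-0.52). Receptors were IL1R1 (-0.74) and ACKR1 (-0.71). NF-kB induced genes were SOD2 (0.47), C3 (-0.79) and VCAM1 (-0.48). In the full list of 22 NF-kB induced genes, 6 were called lower with miR1 and 1 higher, and 15 did not pass. Genes of the IL-6 and STAT3 list were SOCS3 (-0.84), FGB (-0.41), HP (-0.48) and LBP (-0.42). Regulators of messenger RNA were ELAVL1 (0.66), ZFP36L2 (0.53) and KHSRP (0.74), and transcription factors CEBPG (0.62), FOS (-0.55) and FOSB (-0.69). Markers of cell types that could come from the host were LYZ (-0.41), PTPRC (-0.54), LAPTM5 (-0.63), CD4 (-0.38), COL1A2 (-0.39), COL3A1 (-0.52) and CLDN5 (-0.35). The species behind these signals was not tested. Markers of BT474 were ESR1 (-0.53) and GATA3 (-0.78). In the full list of 11 BT474 markers these 2 were called lower with miR1. Another 4, outside the 61 genes, were called higher with miR1, and the list median was 0.15.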

How the results depend on the processing

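Counts of the 10 genes called moved with several settings, and the cause was not tested beyond what a setting leaves out. With miR1 the count was 0 as reported and 1 (CXCL3) with array weights. With miR2 it was 4 as reported, 2 without the genes of lowest mean (which removes dim members), 7 with array weights, and 1 each with CTRL tumours 2 and 5 alone, within set B, with only the groups compared and without miR2 tumours 1 and 3; leaving out 1 tumour gave 1 to 6. For the mean of both it was 3, then 5 with array weights, 1 with the replicate block, 0 with CTRL tumours 2 and 5 alone, 0 within set B, and 1 to 4 with 1 tumour left out. Between the hairpins it was 2, then 5 with array weights, 0 without the genes of lowest mean, 1 with quantile normalization, the set block, set B or without miR2 tumours 1 and 3, and 1 to 5 with 1 tumour left out. The replicate block gave 0 with miR1, 5 with miR2 and 2 between the hairpins, and IL6 kept its call with miR2 there. Over all genes, calls with miR1 (874) became 3371 with array weights, 25 with CTRL tumours 2 and 5, 10 and 1 within sets A and B, and 233 to 1913 with 1 tumour left out. Calls with miR2 (5508) became 8868, 803 and 2550 (set B), 3366 with only the groups compared, 450 without miR2 tumours 1 and 3, and 2391 to 7739 with 1 left out. For the mean (3414) they became 7047, 138 and 306 (set B), 790 without miR2 tumours 1 and 3, and 2086 to 5706. Between the hairpins (4136) they became 7180 with array weights, 6773 with the replicate block, 2523 with the set block, 972 within set B, 304 without miR2 tumours 1 and 3, and 1310 to 5923. Among values called as reported, the sign reversed for IL1R2 for the mean of both with CTRL tumours 2 and 5 (-0.01) and for VCAM1 between the hairpins without miR2 tumours 1 and 3 (0.04) (neither passed there). Uncalled values changed sign more often: in at least 1 setting this was so for 6 of the 10 genes with miR1, 4 with miR2 (CCL2 from 0.38 as reported to as low as -0.13, CXCL8 0.27 to -0.17, CXCL1 0.12 to -0.09 and IL1B 0.17 to -0.08), 6 for the mean and 7 between the hairpins. Dim signals and 3 miR2 tumours limit what can be read.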
